A study of Mus musculus with 9 samples.

Results

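The phagocyte NADPH oxidase is measured here through 5 genes, Cybb, Cyba, Ncf1, Ncf4 and Rac2, out of 18194 genes that the arrays name with a single symbol. Each gene was represented by the probe set, among those whose only symbol is that gene, with the highest mean over the 9 arrays, and all 5 passed the filter on low values. The samples were FrII cells, a sorted progenitor fraction with c-Kit, with Mac1 at a low level or more, and without lineage markers or Sca-1, whose tissue label is blood, from mice aged 2 to 4 months. K/L leukaemic mice carry bi-allelic mutations of Cebpa, which encodes a transcription factor needed for granulocyte formation, and gave 3 arrays. Leukaemic mice overexpressing the transcription factor Sox4 gave 3 arrays, and wild type C57/BL6 mice gave 3. How Sox4 was overexpressed is not given in the sources used here. The sample descriptions add CD45.1- and CD45.2+ to the gate of both leukaemias and leave it out for wild type, while the extraction protocol gives it for all samples. Labels number the mice 1 to 3 in each group, with titles in the plural, and do not say whether animals were pooled or whether the leukaemias of a group arose separately. P-values therefore measure the spread between these arrays.

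The phagocyte NADPH oxidase moves electrons from cytosolic NADPH across a membrane to oxygen and so makes superoxide, the starting point of the oxidative burst with which neutrophils and macrophages kill microbes. Cybb (gp91phox, also called NOX2) is its catalytic chain and Cyba (p22phox) the partner chain, and together they form flavocytochrome b558 in the membrane. The complex is silent until cytosolic proteins join it: Ncf1 (p47phox) is the organiser that binds p22phox after phosphorylation, Ncf4 (p40phox) binds phosphatidylinositol 3-phosphate on phagosomes, and Rac2 is the small GTPase of blood cells that switches the assembled enzyme on. In people, loss of gp91phox, p22phox, p47phox or p40phox causes forms of chronic granulomatous disease. Cells acquire the oxidase as they mature along the myeloid lineage, under regulators that include PU.1, encoded by Spi1, and IRF8.

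The stretches of 250 bases upstream of the starts of the genes for the 2 membrane chains are shown because these genes moved in opposite directions in K/L cells. They come from RefSeq (mouse build GRCm38.p6), and 3 of the 5 genes had an entry in the promoter table (Cybb, Cyba and Ncf1). Capitals mark the letters CCAAT, the CCAAT box, and AGGAA, a core of ETS factor sites. The Cybb window lies at chrX:9469325-9469574 on the minus strand and the Cyba window at chr8:122432941-122433190 on the minus strand, both read 5′ to 3′ along the gene.
Cybb: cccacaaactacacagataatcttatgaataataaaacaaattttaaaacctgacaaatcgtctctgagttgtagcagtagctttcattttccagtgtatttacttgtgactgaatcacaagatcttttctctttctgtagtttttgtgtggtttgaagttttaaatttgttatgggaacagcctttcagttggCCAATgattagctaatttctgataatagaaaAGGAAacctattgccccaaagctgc
Cyba: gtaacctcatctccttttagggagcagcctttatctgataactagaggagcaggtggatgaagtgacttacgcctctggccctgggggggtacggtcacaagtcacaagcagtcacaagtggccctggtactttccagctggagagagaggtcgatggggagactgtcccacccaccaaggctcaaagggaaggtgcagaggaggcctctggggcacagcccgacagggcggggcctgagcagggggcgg
The Cybb window held CCAAT at -56 to -52 and AGGAA at -25 to -21, counted from the start of the gene, whereas the Cyba window held neither on either strand. Among 32851 promoter windows of the same length and source, 33.8% held CCAAT and 60.3% held AGGAA on either strand, so each match by itself is common. The letters AGATAA, a core bound by factors such as GATA1 and found in 9.99% of windows, occurred in the Cybb window at -236 to -231 and on the opposite strand of the Cyba window at -220 to -215. GAGGAA, a longer PU.1-type core that contains AGGAA, and TTNNGNAA, a C/EBP-type core, were in 23.3% and 36.8% of all windows and in neither of these. The Ncf1 window held none of the 5 motifs searched. G and C made up 34% of the Cybb window, a content below which only 3.87% of windows lay, against 60% of the Cyba window (72.1% of windows lay lower) and a median of 52.4%. These are letter matches, and no binding was measured.

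The deposited values are linear intensities with a floor of 8, which is 3 on the log2 scale, and levels below are log2 intensities. Changes are differences between group means ± the standard error from one limma fit of all 9 arrays, adjusted by the Benjamini-Hochberg method over 12826 tested genes and called at an adjusted p under 0.05. Median linear intensity was 43.07 to 43.93 on the K/L, 45.83 to 46.43 on the Sox4 and 46.20 to 46.79 on the wild type arrays. All K/L arrays thus lay below the others in this measure. Precision is limited by having 3 arrays a group. Probe sets of Sox4 disagreed. In K/L, Sox4 leukaemic and wild type cells, 1433575_at averaged 10.67, 9.74 and 3.87. Likewise 1449370_at averaged 8.84, 8.16 and 4.55, and 1419157_at 7.43, 6.12 and 3.73. In contrast, 1455867_at averaged 8.28, 7.45 and 8.33, 1419155_a_at 8.27, 7.34 and 7.82 and 1419156_at 8.18, 7.67 and 7.63. The remaining probe sets, 1443778_at and 1458332_x_at, averaged 3 to 3.12, at or near the floor. Cebpa averaged 10.56 in K/L, 10.58 in Sox4 and 9.59 in wild type cells. Of the sort markers, Kit averaged 9.22, 9.18 and 9.17 in those groups, while Itgam, which encodes Mac1, averaged 3.83, 4.2 and 4.91, at or below the 40th percentile of the arrays (4.84 to 4.95), and was not tested. Wild type array 3 stood apart. In it, 400 and 495 genes lay more than 2-fold from the other wild type arrays, against 18 to 69 genes for every other replicate pair, so the values of the oxidase genes against wild type are also given without it, and those of other named genes where a call changed or the fold moved by over 1.5 times. RNA quality, read as the 3' over 5' signal of the Gapdh control probe sets, gave ratios of 1.93 to 2.00 on K/L, 2.22 to 2.44 on Sox4 and 2.68 to 2.91 on wild type arrays. The same ratio for actin overlapped between groups, at 0.866 to 0.913, 0.881 to 0.915 and 0.885 to 0.976. The part of RNA quality in the differences below was not tested.

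Cybb, the catalytic chain, was the oxidase gene with the largest differences, lower in K/L and higher in Sox4 leukaemic cells than in wild type. Its level (1436778_at) was 6.03, 5.24 and 6.09 on the K/L arrays, 10.03, 9.59 and 9.87 on the Sox4 arrays and 8.19, 8.21 and 6.46 on the wild type arrays. The groups did not overlap, and wild type array 3 lay far below the other wild type arrays and closest to K/L. Cybb averaged 5.79 ± 0.48 in K/L cells, 9.83 ± 0.22 in Sox4 cells and 7.62 ± 1.00 in wild type cells (SD, n = 3 each). Within an array, 46.6% to 58.5% of all probe sets lay below it on the K/L arrays, 90.3% to 92.8% on the Sox4 arrays and 61.3% to 78.2% on the wild type arrays. The change in K/L against wild type was -1.83 ± 0.43, or 3.56-fold lower (95% interval -2.79 to -0.88, adjusted p = 0.0054). In Sox4 against wild type it was 2.21 ± 0.43, or 4.62-fold higher (interval 1.25 to 3.16, adjusted p = 0.00194). Set directly against each other, K/L cells were 16.5-fold lower than Sox4 cells (-4.04 ± 0.43, interval -5.00 to -3.08, adjusted p = 7.58e-05). Without wild type array 3, the K/L change against wild type was -2.41 (5.32-fold lower, adjusted p = 5.85e-05) and the Sox4 change 1.63 (3.09-fold higher, adjusted p = 0.000606). In sorted bulk samples such as these, fewer cells that express a gene and less RNA per cell cannot be told apart.

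**Figure D1:**
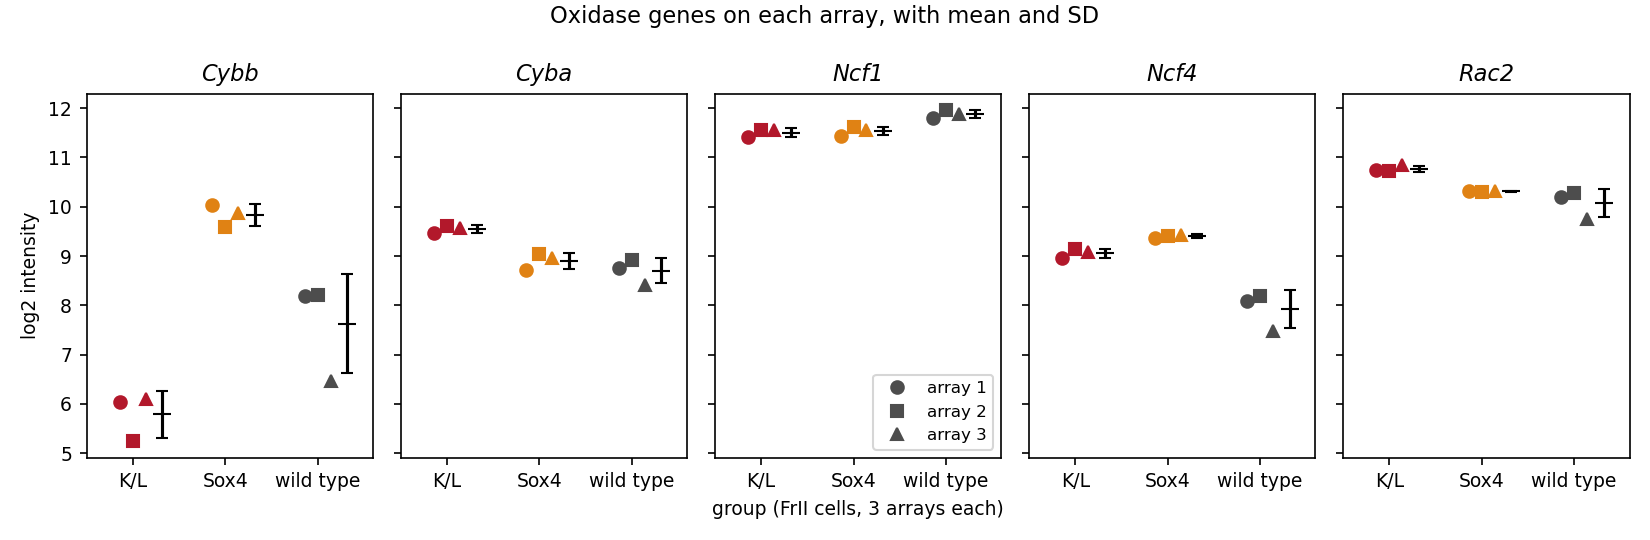
Log2 intensity of the 5 oxidase genes on each array (vertical axis, 1 panel per gene) in K/L, Sox4 and wild type cells (3 arrays each), with each group's mean as a line. Cybb averages 5.79 in K/L, 9.83 in Sox4 and 7.62 in wild type cells, with wild type array 3 at 6.46, whereas the groups lie within narrower ranges for the other genes.

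Cyba, whose product gp91phox needs for stability in the membrane, was higher in K/L cells than in either other group. Its level (1454268_a_at) was 9.47, 9.61 and 9.57 on the K/L arrays, 8.71, 9.03 and 8.96 on the Sox4 arrays and 8.76, 8.91 and 8.42 on the wild type arrays. All K/L arrays lay above all others, while the Sox4 and wild type arrays overlapped. The means were 9.55 ± 0.07, 8.90 ± 0.17 and 8.70 ± 0.25 in K/L, Sox4 and wild type cells. K/L against wild type gave 0.85 ± 0.14, or 1.80-fold higher (adjusted p = 0.000716), and K/L against Sox4 0.65 ± 0.14, or 1.57-fold higher (adjusted p = 0.00653). Sox4 against wild type gave 0.20 ± 0.14, with an interval of -0.12 to 0.51 (adjusted p = 0.274). Without wild type array 3 the changes against wild type were 0.71 in K/L (adjusted p = 0.000961) and 0.060 in Sox4 cells (adjusted p = 0.704).

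The genes of the 2 chains of flavocytochrome b558 thus moved apart in K/L cells. Cybb minus Cyba on the log2 scale was -3.43, -4.37 and -3.47 on the K/L arrays, 1.32, 0.56 and 0.92 on the Sox4 arrays and -0.57, -0.70 and -1.96 on the wild type arrays. The 3 groups did not overlap, with K/L lowest and Sox4 highest. The group means were -3.76 ± 0.53, 0.93 ± 0.38 and -1.08 ± 0.77, so the difference moved by -2.68 in K/L against wild type, 2.01 in Sox4 against wild type and -4.69 in K/L against Sox4. An exact two-sided permutation test over arrays gave p = 0.1 for each pair, the smallest value that 3 against 3 arrays allow. This difference shows unequal change between 2 probe sets and not the ratio of the chains.

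Ncf1, the organiser, was slightly lower in both leukaemias. Its level (1456772_at) was 11.41, 11.55 and 11.56 on the K/L arrays, 11.44, 11.61 and 11.55 on the Sox4 arrays and 11.81, 11.96 and 11.88 on the wild type arrays. Every leukaemic array lay below every wild type array, and the leukaemias overlapped. The change was -0.38 ± 0.09 in K/L (1.30-fold lower, adjusted p = 0.00807) and -0.35 ± 0.09 in Sox4 cells (1.27-fold lower, adjusted p = 0.0124). Without Sox4 array 1 the Sox4 change was -0.30 and no longer passed (adjusted p = 0.0527), while without wild type array 3 the changes were -0.38 in K/L (adjusted p = 0.0107) and -0.35 in Sox4 cells (adjusted p = 0.0157). K/L against Sox4 gave -0.028 ± 0.09, with an interval of -0.24 to 0.18 (adjusted p = 0.866), and the sign of this small value turned with the scaling, to 0.052 with each array centred on its median.

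Ncf4, the phosphoinositide-binding member, was higher in both leukaemias. Its level (1418465_at) was 8.95, 9.14 and 9.07 on the K/L arrays, 9.36, 9.40 and 9.44 on the Sox4 arrays and 8.09, 8.19 and 7.48 on the wild type arrays. Wild type arrays were lowest, array 3 again below its companions, and none of the 3 groups overlapped. K/L cells were 2.19-fold higher than wild type (1.13 ± 0.17, adjusted p = 0.000359) and Sox4 cells 2.79-fold higher (1.48 ± 0.17, adjusted p = 6.63e-05). Without wild type array 3 these were 1.88-fold (adjusted p = 4.93e-05) and 2.39-fold (adjusted p = 8.48e-06). K/L against Sox4 gave -0.35 ± 0.17 (interval -0.72 to 0.029, adjusted p = 0.159). That difference passed when wild type array 3 was left out of the shared spread (adjusted p = 0.00924) and in a fit of only the K/L and Sox4 arrays (adjusted p = 0.0119).

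Rac2, the GTPase, was higher in K/L cells. Its level (1417620_at) was 10.74, 10.72 and 10.84 on the K/L arrays, 10.31, 10.31 and 10.32 on the Sox4 arrays and 10.19, 10.27 and 9.75 on the wild type arrays. K/L arrays were highest, Sox4 arrays came next with almost no spread, and wild type arrays were lowest, again with array 3 at the bottom. K/L against wild type gave 0.70 ± 0.13, or 1.62-fold higher (adjusted p = 0.00173), and 0.53 without wild type array 3 (adjusted p = 0.000675). Sox4 against wild type gave 0.24 ± 0.13 (interval -0.055 to 0.54, adjusted p = 0.162), although the arrays did not overlap, and 0.082 without wild type array 3 (adjusted p = 0.446). K/L against Sox4 gave 0.45 ± 0.13, or 1.37-fold higher (adjusted p = 0.0291). Leaving out any single K/L or Sox4 array raised that adjusted p to between 0.06 and 0.0937, so this call rests on all 6 of those arrays.

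The order of the group means differed among the genes. For Cybb the order was Sox4, wild type and K/L, with every neighbouring pair past the test. For Cyba and Rac2 it was K/L, Sox4 and wild type, with Sox4 and wild type not told apart by the test. Ncf4 ran Sox4, K/L and wild type, with the leukaemias not told apart, and Ncf1 had wild type on top with the leukaemias not told apart below it.

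**Figure D2:**
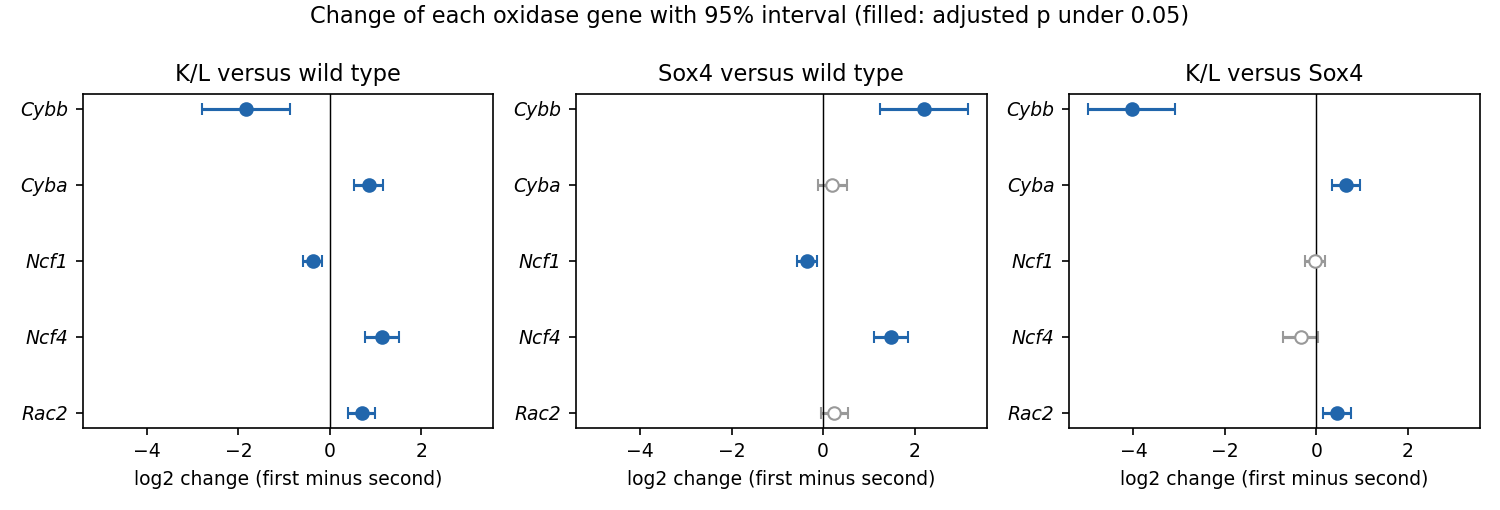
Change of each oxidase gene in log2 units with its 95% interval (horizontal axis) for K/L versus wild type, Sox4 versus wild type and K/L versus Sox4; filled points passed an adjusted p of 0.05. Cybb lies at -1.83, 2.21 and -4.04, and 2 genes in each of the Sox4 versus wild type and K/L versus Sox4 panels are open points.

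Counted together, all 5 genes passed in K/L against wild type, 3 higher and 2 lower. Over all tested genes 50.6% passed in that comparison, 29% higher and 21.6% lower. In Sox4 against wild type 3 passed, 2 higher and 1 lower, with a background of 47.8% (26.7% higher and 21.1% lower). In K/L against Sox4 3 passed, 2 higher and 1 lower, with a background of 28.9% (14.9% higher and 14% lower). Groups did not overlap for 5 genes in K/L against wild type, where this held for 58.1% of all genes, for 4 in Sox4 against wild type (56.2%) and for 4 in K/L against Sox4 (51.1%). With so many genes called, the Sox4 count is close to its background, and counts of 5 genes say little by themselves. The comparisons against wild type share the same 3 wild type arrays. The median change of the 5 genes was 0.70, 0.24 and -0.028 in K/L against wild type, Sox4 against wild type and K/L against Sox4, beside 0.055, 0.031 and 0.027 for all tested genes.

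The size of the change separated the genes more than the count did. The absolute change of Cybb was above that of 94.7%, 96.6% and 99.5% of tested genes in K/L against wild type, Sox4 against wild type and K/L against Sox4. Ncf4 exceeded 86.7% and 92.2% of genes in the comparisons with wild type and 65.4% between the leukaemias. Cyba and Rac2 exceeded 78.9% and 73.2% of genes in K/L against wild type but 32.9% and 38.8% in Sox4 against wild type. Ncf1 lay in the middle against wild type, at 51.2% and 50.8%, and near the bottom between the leukaemias, at 7.41%.

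Altogether 10 probe sets report these genes alone, 3 each for Cybb and Ncf1, 2 for Rac2 and 1 each for Cyba and Ncf4. In a fit of all 29174 probe sets that passed the filter, 7 of the 10 passed in K/L against wild type (50.1% of all probe sets did), 6 in Sox4 against wild type (46.4%) and 5 in K/L against Sox4 (26.7%). For Cybb, 1422978_at changed by -1.71 in K/L (adjusted p = 0.0123) and 2.44 in Sox4 cells (adjusted p = 0.00204), close to the probe set of highest mean. The third, 1436779_at, changed by 2.6 in Sox4 cells (adjusted p = 0.000273) and by -3.33 in K/L against Sox4 (adjusted p = 0.000115). Against wild type, however, it gave -0.72 in K/L cells and did not pass (adjusted p = 0.122), and the arrays overlapped. The fall of Cybb in K/L cells against wild type was thus past the test in 2 of 3 probe sets, and its difference between the leukaemias in all 3.

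Probe sets of Ncf1 and Rac2 also disagreed. For Ncf1, 1451767_at changed by -0.38 in K/L (adjusted p = 0.0104) and -0.37 in Sox4 cells (adjusted p = 0.0123), but 1425609_at gave -0.14 and -0.10 (adjusted p = 0.351 and 0.526). The other Rac2 probe set, 1440208_at, gave 0.16, 0.18 and -0.018 for K/L against wild type, Sox4 against wild type and K/L against Sox4, with adjusted p = 0.621, 0.59 and 0.97. With the mean of both Rac2 probe sets, the change in K/L cells was 0.43 against wild type (adjusted p = 0.0691) and 0.22 against Sox4 (adjusted p = 0.406), so neither Rac2 call held.

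**Figure D3:**
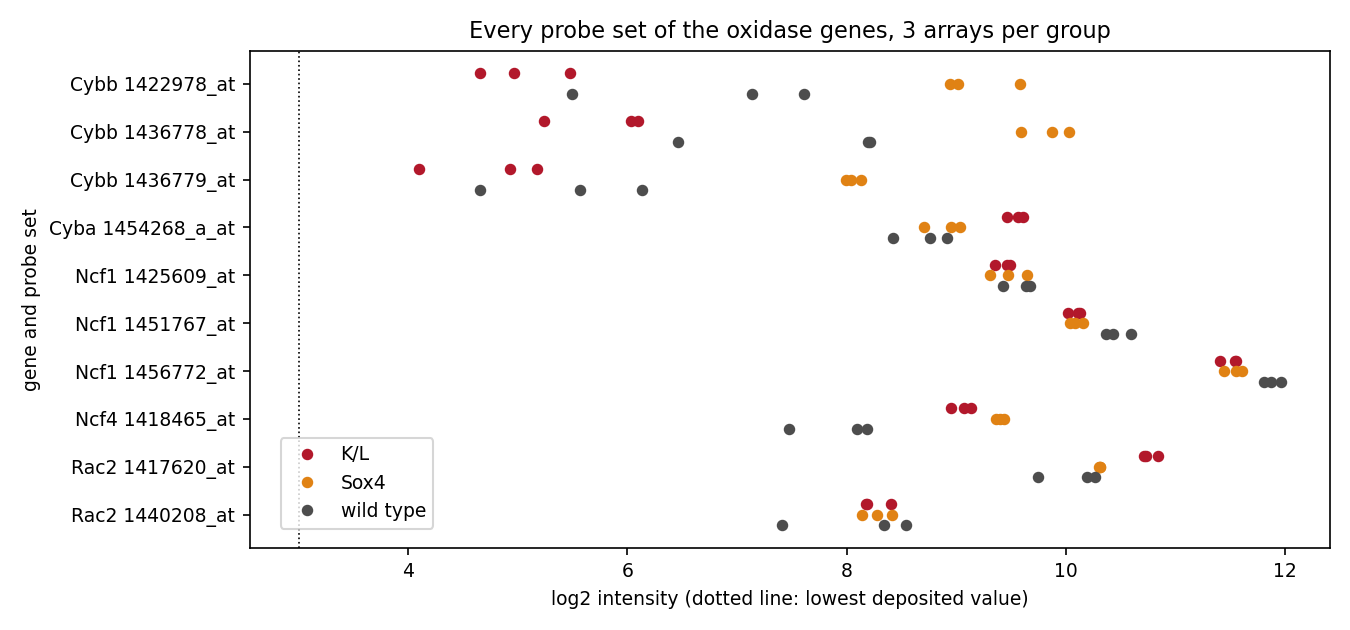
Log2 intensity (horizontal axis) of all 10 probe sets of the oxidase genes on each of 3 arrays in K/L, Sox4 and wild type cells. The 3 Cybb probe sets have Sox4 arrays to the right of all others, and for 1436779_at the K/L and wild type arrays overlap.

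Profiles over the 9 arrays, each centred on its own mean, show which oxidase genes moved alike. The root mean square distance was smallest between Cyba and Rac2 (0.13 log2 units), 0.46 to 0.82 among the other pairs without Cybb, and 1.65 to 1.98 between Cybb and each of the others. All profiles share the same arrays and their scaling. Among all tested genes, the nearest to Cybb was Il6st, which encodes gp130, the signalling chain shared by receptors of the interleukin 6 family (0.42), followed by 2210408K08Rik (0.47) and Luzp1 (0.49). The nearest to Cyba were Gipc1, Nelfcd and Zfp282 (0.090 to 0.091), and to Ncf1 Amotl2, Pum3 and Exoc2 (0.066 to 0.070). The nearest to Ncf4 were Rfng, the spermidine synthase gene Srm and L3mbtl2 (0.071 to 0.10). The nearest to Rac2 were Osbpl2, the prohibitin gene Phb2 and the aldolase gene Aldoa (0.063 to 0.065). Genes of small change have many neighbours at such distances.

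Ncf4 and Rac2 lie near each other on chromosome 15, with 10 protein-coding genes between them in the RefSeq order of GRCm38.p6. The neighbour list lacked 1 of these, Tex33, and held Cyth4 and Pvalb, which lie outside that interval. Of its 9 tested genes, Cyth4 included, 2 were higher and 1 lower in K/L than in wild type, 5 higher and 0 lower in Sox4 than in wild type, and 0 higher and 4 lower in K/L than in Sox4. Over all tested genes, 29% were higher and 21.6% lower in K/L and 26.7% and 21.1% in Sox4 cells against wild type. In K/L against Sox4 those shares were 14.9% and 14%. Csf2rb2, a beta chain gene of the interleukin 3 receptor, changed by 1.93 in Sox4 cells (adjusted p = 1.69e-06) and by -2.09 in K/L against Sox4 (adjusted p = 1.27e-06). Kctd17 changed by 1.45 and -1.48 in those comparisons (adjusted p = 0.000404 and 0.000675). Csf2rb, the common beta chain gene of the interleukin 3, interleukin 5 and GM-CSF receptors, gave -0.29 in K/L against wild type (adjusted p = 0.508) and -0.99 in K/L against Sox4 (adjusted p = 0.0551). Both Csf2rb comparisons passed without wild type array 3, at -0.81 against wild type (adjusted p = 0.000255) and in K/L against Sox4 (adjusted p = 5.98e-05). Mpst and Cyth4 were higher in both leukaemias against wild type, at 0.87 and 0.66 in K/L (adjusted p = 0.00326 and 0.00819) and 0.64 and 0.49 in Sox4 cells (adjusted p = 0.0175 and 0.0356). Tst changed by -0.41 in K/L and 0.37 in Sox4 cells against wild type (adjusted p = 0.0286 and 0.0489) and by -0.78 in K/L against Sox4 (adjusted p = 0.00198). C1qtnf6 passed in K/L against Sox4 (-0.69, adjusted p = 0.0292) and, without wild type array 3, in K/L against wild type (-0.57, adjusted p = 0.0313), Tmprss6 and Sstr3 passed in 0 comparisons, and Il2rb and Pvalb lay under the filter. Without wild type array 3 the Sox4 count was 2 in place of 5, since Tst, Mpst and Cyth4 no longer passed. Ncf4 and Rac2 themselves had opposite signs in K/L against Sox4, at -0.35 (adjusted p = 0.159) and 0.45 (adjusted p = 0.0291). Called neighbours went both ways in K/L against wild type. The part of chromosome position in these changes was not tested.

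Other parts of the enzyme were measured through 4 genes. Hvcn1, the proton channel that balances the charge carried by the oxidase, averaged 9.28 ± 0.06 in K/L, 9.12 ± 0.14 in Sox4 and 8.31 ± 0.33 in wild type cells. It was higher in K/L (0.97, adjusted p = 0.000594) and in Sox4 cells (0.81, adjusted p = 0.00191), and the leukaemias gave 0.16 (adjusted p = 0.495). Rac1, the widely expressed relative of Rac2, was higher by 0.51 in K/L (adjusted p = 0.00219) and by 0.31 in Sox4 cells (adjusted p = 0.0296), a Sox4 change that was 0.22 without wild type array 3 (adjusted p = 0.0553). Cybc1, a chaperone gene that gp91phox and p22phox need, gave -0.019 and -0.23 (adjusted p = 0.926 and 0.214), and Rap1a, whose GTPase is found with the cytochrome, gave -0.23 and -0.16 (adjusted p = 0.088 and 0.232). Between the leukaemias 0 of the 4 genes passed in limma, beside 28.9% of all tested genes.

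Genes that act upstream of oxidase assembly, such as Fc receptors, phosphoinositide 3-kinases, protein kinases C and Rac exchange factors, were 9 higher, 5 lower and 5 not past the test among 19 in K/L against wild type (median 0.36). In Sox4 against wild type 10 were higher, 3 lower and 6 not past it (median 0.52). The shares over all tested genes were 29% higher and 21.6% lower in K/L and 26.7% and 21.1% in Sox4 cells. Prex1, an exchange factor that loads Rac2, changed by 2.15 in K/L (adjusted p = 3.14e-05) and 1.82 in Sox4 cells (adjusted p = 9.5e-05), and the exchange factor gene Vav2 by 1.20 (adjusted p = 9.04e-06) and 1.16 (adjusted p = 1.19e-05). Lower in both was Fcgr3, a low-affinity IgG receptor gene, at -0.71 (adjusted p = 0.000143) and -0.67 (adjusted p = 0.000223). Prkcb, a protein kinase C that phosphorylates p47phox, changed by -0.78 in K/L (adjusted p = 0.012) and -1.53 in Sox4 cells (adjusted p = 0.000245). In K/L against Sox4, where 28.9% of all tested genes passed, 2 of these 19 were higher and 3 lower. Among them were Clec7a, the fungal receptor gene for dectin-1 (-1.71, adjusted p = 0.00124), Vav3 (-0.68, adjusted p = 0.000414) and Prkcb (0.75, adjusted p = 0.0243).

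Genes listed for superoxide and peroxide handling include some that remove neither directly. Of 22 tested, 9 were higher and 4 lower in K/L and 8 higher and 3 lower in Sox4 cells against wild type, with medians of 0.22 and 0.12. Of all tested genes, 50.6% passed in K/L and 47.8% in Sox4 cells against wild type, and 28.9% between the leukaemias. The peroxiredoxin gene Prdx4 changed by 2.5 in K/L (adjusted p = 1.37e-06) and 3.75 in Sox4 cells (adjusted p = 1.14e-07), whereas Prdx2 changed by -1.02 (adjusted p = 0.00011) and -0.74 (adjusted p = 0.000901). Sod2, the mitochondrial superoxide dismutase gene, changed by 0.42 (adjusted p = 0.00378) and 0.56 (adjusted p = 0.000765). Genes of this list thus moved in both directions within each leukaemia. Between the leukaemias 2 were higher and 2 lower in K/L, among them Prdx4 at -1.25 (adjusted p = 0.000263) and the quinone reductase gene Nqo1 at 0.50 (adjusted p = 0.00774).

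Genes listed for the supply of NADPH, the electron donor of the oxidase, include enzymes that do not make NADPH themselves. Of 9 tested, 2 were higher and 3 lower in K/L and 3 higher and 3 lower in Sox4 cells against wild type. The share of all tested genes that passed was 50.6% and 47.8% in those comparisons and 28.9% in K/L against Sox4. Idh1, the cytosolic isocitrate dehydrogenase, changed by -2.16 in K/L (adjusted p = 3.68e-07) and -0.75 in Sox4 cells (adjusted p = 0.000419), and Rpe of the pentose phosphate pathway by -1.20 (adjusted p = 9.77e-06) and -0.62 (adjusted p = 0.000735). In K/L against Sox4 0 were higher and 4 lower, namely Idh1 by -1.40 (adjusted p = 1.12e-05), Rpe, Nadk and Rpia. Pgd gave 0.26 there and did not pass (adjusted p = 0.0993). Of the 3 peroxidase genes, whose enzymes use the peroxide made from superoxide, Mpo of neutrophils gave -0.066 in K/L (adjusted p = 0.554) and 0.024 in Sox4 cells (adjusted p = 0.843). Epx, the eosinophil peroxidase gene, averaged 4.49 ± 0.28 in K/L, 7.31 ± 0.12 in Sox4 and 4.19 ± 0.21 in wild type cells, so that Sox4 cells lay 3.12 above wild type (adjusted p = 3.63e-07). Lpo changed by -0.85 in K/L (adjusted p = 0.00263) and -1.27 in Sox4 cells (adjusted p = 0.000225).

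Relatives of the oxidase were measured in part. Of 9 listed genes, which are other NADPH oxidase and dual oxidase genes and partners of these, 5 were on the arrays. Only Noxo1, a homologue of Ncf1, passed the filter. Its means were 6.09 in K/L, 5.77 in Sox4 and 6.08 in wild type cells, with 0 calls in limma. Nox4, Duox1, Duoxa1 and Duoxa2 had group means of 3.36 to 4.71, below the 40th percentile of the arrays.

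**Figure D4:**
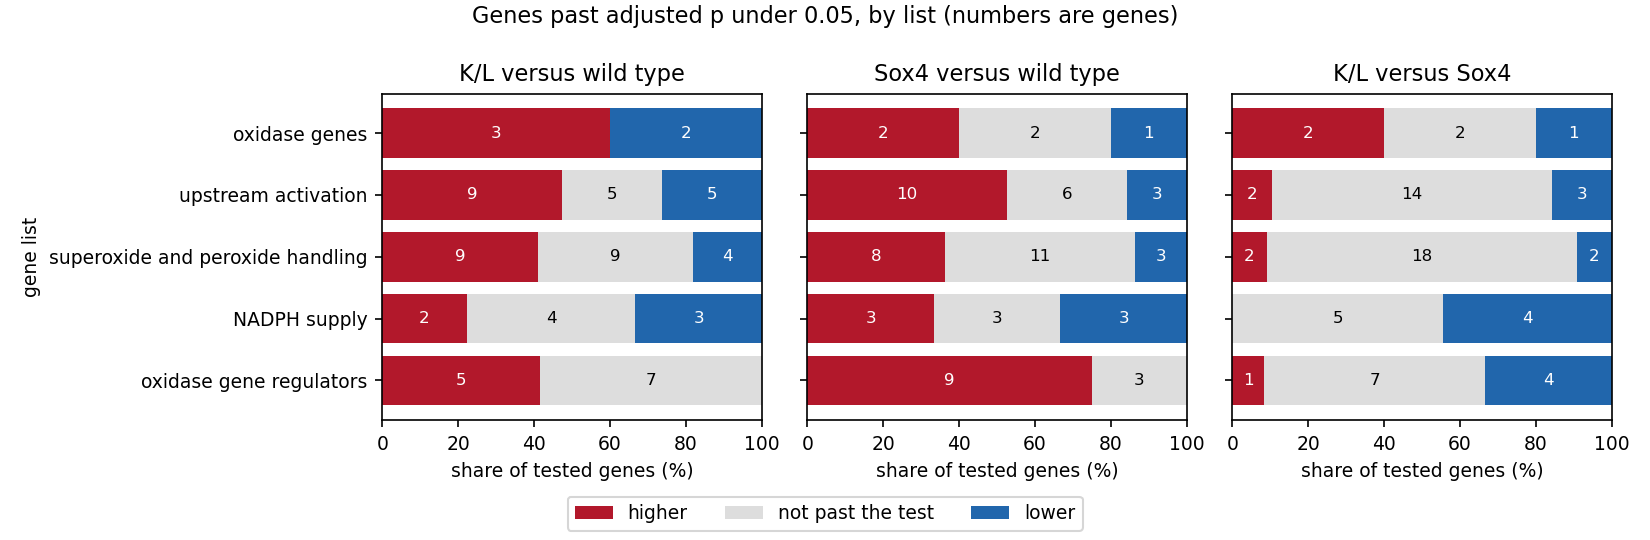
Share of tested genes (horizontal axis, percent) that were higher, not past the test or lower in limma, for the oxidase genes and 4 related lists, in K/L versus wild type, Sox4 versus wild type and K/L versus Sox4, with gene counts in the bars. Regulators of the oxidase genes show 9 of 12 higher in Sox4 cells and 4 of 12 lower in K/L against Sox4 cells. Over all tested genes these shares were 26.7% and 14%.

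Regulators known to act on oxidase genes were 5 higher and 0 lower of 12 in K/L (median 0.16) and 9 higher and 0 lower in Sox4 cells (median 1.08) against wild type, and 1 higher and 4 lower in K/L against Sox4. Shares over all tested genes were 29% higher and 21.6% lower in K/L and 26.7% and 21.1% in Sox4 cells against wild type. In K/L against Sox4 they were 14.9% and 14%. Irf8, a factor that acts with PU.1 on Cybb, averaged 8.24 ± 0.27 in K/L, 10.78 ± 0.08 in Sox4 and 6.75 ± 1.05 in wild type cells. It ranged from 8.02 to 8.54 on the K/L arrays, from 10.69 to 10.86 on the Sox4 arrays and from 5.54 to 7.38 on the wild type arrays, without overlap. Irf8 was therefore higher in both leukaemias, by 1.49 in K/L (adjusted p = 0.0126) and 4.03 in Sox4 cells (adjusted p = 3.33e-05), with a difference of -2.55 for K/L against Sox4 (adjusted p = 0.00118). Without wild type array 3 the changes against wild type were 0.88 in K/L (adjusted p = 0.00106) and 3.43 in Sox4 cells (adjusted p = 5.1e-07). Cybb shared the direction of Irf8 in Sox4 cells and between the leukaemias but had the opposite one in K/L against wild type. The calls of smallest p in Sox4 cells were those of the homeobox genes Meis1 (3.47, adjusted p = 5.2e-08) and Hoxa9 (1.71, adjusted p = 1.24e-06), while K/L cells gave 0.088 and -0.17 for them (adjusted p = 0.599 and 0.223). Cebpb, a C/EBP factor of macrophages, changed by 1.21 in K/L (adjusted p = 0.00163) and 1.24 in Sox4 cells (adjusted p = 0.00141). Spi1, which encodes PU.1, averaged 8.04, 8.09 and 8.14 in K/L, Sox4 and wild type cells and passed in no comparison (adjusted p = 0.57, 0.801 and 0.817). Cux1, a repressor of CYBB studied in human cells, changed by 1.20 in K/L (adjusted p = 0.000478) and 0.91 in Sox4 cells (adjusted p = 0.00272), and Irf2 by 2.00 (adjusted p = 9.67e-05) and 1.27 (adjusted p = 0.00177). Gata1, which drives CYBB in human eosinophils, changed by 1.37 in Sox4 cells (adjusted p = 9.56e-05) and by -1.66 in K/L against Sox4 (adjusted p = 4.74e-05).

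Markers of mature cells also differed between the groups. The summed linear intensity of 13 monocyte and macrophage markers was 3610 to 4433 on the K/L arrays, 7346 to 7871 on the Sox4 arrays and 2495 to 2654 on the wild type arrays. Of the 9 that were tested, 4 were higher and 1 lower in K/L and 8 higher and 1 lower in Sox4 cells against wild type, and 2 were higher and 6 lower in K/L against Sox4. Of all tested genes, 29% were higher and 21.6% lower in K/L and 26.7% and 21.1% in Sox4 cells against wild type. The shares in K/L against Sox4 were 14.9% and 14%. The macrophage markers C1qa, C1qb, Ms4a7 and Mrc1 had group means of 3.16 to 4.45, below the filter. The sum over late neutrophil markers was 330.3 to 482.7 on the K/L arrays, 4240 to 4511 on the Sox4 arrays and 15340 to 20840 on the wild type arrays, with wild type array 3 lowest in its group. Of 11 tested, 0 were higher and 7 lower in K/L and 6 higher and 4 lower in Sox4 cells against wild type, and 0 higher and 9 lower in K/L against Sox4. The neutrophil sum in wild type cells was mostly S100a8 and S100a9, which averaged 4.64 and 6.24 in K/L cells, 10.45 and 10.85 in Sox4 cells and 12.64 and 13.47 in wild type cells. Over the other 9 markers, a split made after these values were seen, the sum was 240.8 to 336.1 on the K/L arrays, 1005 to 1241 on the Sox4 arrays and 382.1 to 670.3 on the wild type arrays. Ltf, Lcn2, Ngp, Camp and Mmp8 were among the 6 higher in Sox4 cells against wild type, by 2.33, 1.51, 1.69, 1.19 and 0.88 (adjusted p = 4.17e-06, 0.00123, 0.0129, 0.0316 and 0.0216). Cd177 and Itgb2l, also among the other 9 markers, went the other way, by -0.90 and -0.41 (adjusted p = 0.00944 and 0.0123). Neither the full neutrophil sum nor the monocyte sum had the group order of Cybb. The sum without S100a8 and S100a9 did, with Sox4 highest and K/L lowest. Because that split was chosen on these same values, its match with Cybb is no test.

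Sums for other cell types also differed by group. Mast cell and basophil markers summed to 4710 to 5408 on the K/L arrays, 1387 to 1884 on the Sox4 arrays and 919.4 to 1236 on the wild type arrays, and eosinophil markers to 4097 to 4171 in K/L, 1259 to 1615 in Sox4 cells and 1311 to 2337 in wild type. Both sums were highest in K/L cells, but their genes were split. In K/L against Sox4, 3 of 5 tested eosinophil markers were higher (Prg3, Il5ra and Siglecf) and 2 lower (Epx at -2.81 and Prg2 at -2.21), and 2 of 4 tested mast cell and basophil markers were higher (Cpa3 and Mcpt8) and 1 lower (Ms4a2 at -3.60). Over all tested genes 14.9% were higher and 14% lower in K/L against Sox4. Erythroid markers summed to 290.2 to 319.6 in K/L, 1226 to 1340 in Sox4 cells and 243.7 to 283.7 in wild type, and megakaryocyte markers to 236.7 to 247.5 in K/L, 1364 to 2169 in Sox4 cells and 296.6 to 353.3 in wild type. Both sums were highest in Sox4 cells, where 4 of 6 tested erythroid and 6 of 6 tested megakaryocyte markers were higher than in wild type and 0 lower. Over all tested genes 26.7% were higher and 21.1% lower in Sox4 cells than in wild type. B cell markers summed to 406.1 to 438.8 in K/L, 435.9 to 525.1 in Sox4 cells and 203.8 to 233.3 in wild type. The highest of them, Cd79b, averaged 8.08, 8.60 and 6.70 in those groups. Of 3 tested B cell markers, 2 were higher and 0 lower in K/L against wild type, where 29% and 21.6% of all tested genes were. In Sox4 cells 1 was higher and 1 lower, Cd79a by -0.63 (adjusted p = 0.0323, and 0.0988 without wild type array 3). T and NK cell markers summed to 1918 to 2032 in K/L, 2061 to 2442 in Sox4 cells and 2044 to 2342 in wild type. The T and NK cell sum was mostly Nkg7, which averaged 10.80, 11.02 and 10.94 in K/L, Sox4 and wild type cells. The other T and NK cell markers had group means of 3.82 to 5.82. In each group 0 marker genes lay at the floor on all 3 arrays. The part of these cell types in the oxidase results was not tested.

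**Figure D5:**
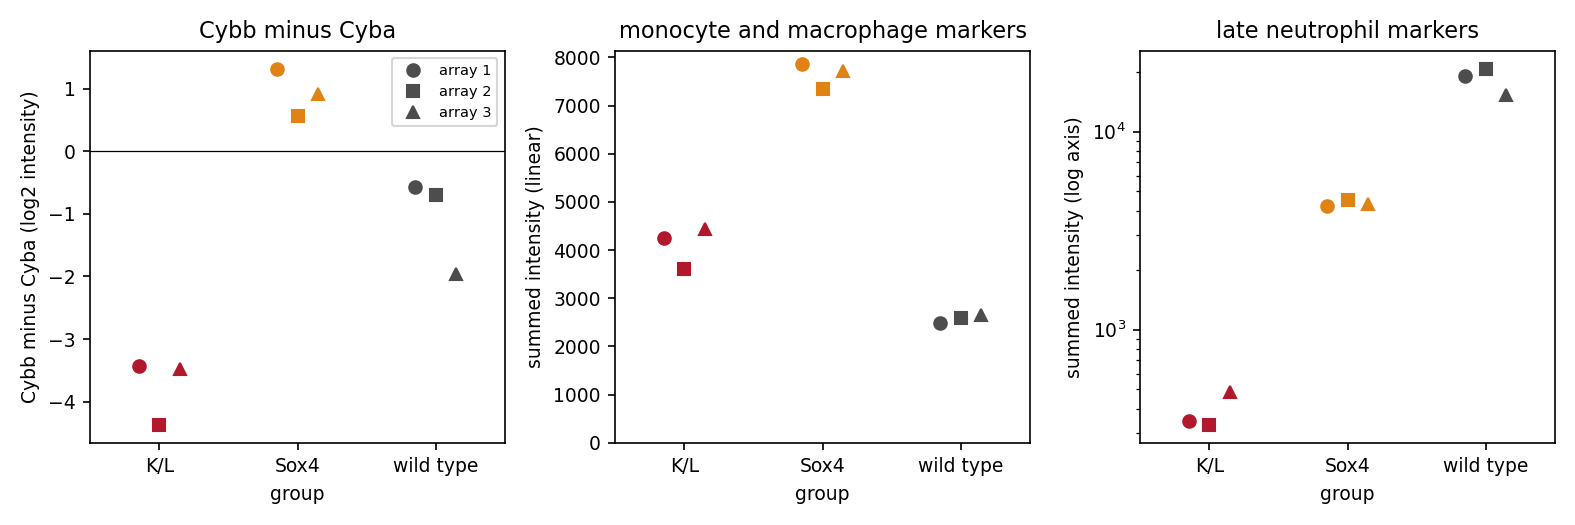
Left, Cybb minus Cyba in log2 units on each array; middle and right, summed linear intensity of monocyte and macrophage markers and of late neutrophil markers (log axis) on each array, in K/L, Sox4 and wild type cells. The Cybb minus Cyba means are -3.76, 0.93 and -1.08, and the neutrophil sums are 330.3 to 482.7, 4240 to 4511 and 15340 to 20840.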

How the data were processed

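Total RNA of sorted FrII cells was hybridised to Affymetrix mouse arrays, from 5 ug per sample, per the labels' protocols. The deposited table gives linear intensity for 45101 probe sets. Per the submitters' processing notes RMA was used, and its version is not given in the sources used here. The log2 of each value was taken with no rescaling. Gene names came from GEO's platform annotation of 2016, where 34958 probe sets carried a single symbol and were used, 932 carried several and 9211 carried none. A gene took its probe set of highest mean (_x_at ones only where it had no other) and was tested if at least 3 of 9 arrays exceeded the 40th percentile of that array, which 12826 genes did.

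A single limma model (version 3.58.1 under R 4.3.3) covered the 9 arrays and 3 groups, with 6 residual and 3.71 prior degrees of freedom, p-values were adjusted over all tested genes, and the steps were tested on simulated data. The Cybb minus Cyba difference used an exact permutation test (scipy 1.17.1). Groups came from the sample titles. The oxidase genes, the gene lists and the tests were chosen with earlier results of these data known. The rule for named genes took all oxidase genes and their probe sets. It also took every other part of the enzyme and chromosome 15 neighbour that was listed and on the arrays. Up to 6 list members of smallest p and the 3 genes of nearest profile to each oxidase gene were added. Spi1, Prkcb in K/L cells, Cux1 and Irf2 in Sox4 cells and single marker genes fell outside that rule and were named after their values were seen. Alternatives covered the scaling, the filter, the probe set rule, an added constant, the variance model, a replicate block, pairwise fits and leaving out each array. Promoter motifs were chosen with the sequences in view.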

Additional observations from a re-analysis of the deposited data

Results flagged for a closer look

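For 3 of the 5 oxidase genes the change from wild type differed between the leukaemias by the direct test of that difference, K/L minus Sox4. It was -4.04 for Cybb, whose change from wild type was negative in K/L and positive in Sox4 cells. It was 0.65 for Cyba and 0.45 for Rac2, each with a call against wild type in K/L and not in Sox4 cells. The Rac2 difference was seen with 1 of its 2 probe sets and did not pass when any single K/L or Sox4 array was left out.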

How the results depend on the processing

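The values of the oxidase genes were recomputed under 10 alternatives and without each of the 9 arrays in turn, and their calls not named here stayed on their side of the threshold with the same sign. With the mean of all probe sets of a gene, the Rac2 change no longer passed, at 0.43 in K/L against wild type and 0.22 in K/L against Sox4. The Ncf4 difference of K/L against Sox4 passed in a fit of only those groups, at -0.35. The causes of these shifts were not tested. The Ncf1 difference of K/L against Sox4 turned sign with each array centred on its median, at 0.052, and ranged from -0.075 to 0.019 with single arrays left out. Leaving out single arrays gave -0.39 to -0.30 for Ncf1 in Sox4 against wild type, -0.39 to -0.30 for Ncf4 in K/L against Sox4 and 0.42 to 0.48 for Rac2 in K/L against Sox4. Over these fits the members called were 5 in K/L against wild type, 2 to 3 in Sox4 against wild type and 2 to 4 in K/L against Sox4. Median centring split the genes called in K/L against Sox4 into 2546 higher and 1456 lower, in place of 1905 and 1797. The check of pairing found correlations of -0.0235 to 0.0822 between same-numbered arrays, with 0 of 9 over 0.1. It gave no sign that the numbers pair the samples. With 3 arrays a group it cannot exclude a shared litter or batch. With the replicate block, 6369, 5999 and 3503 genes passed in K/L against wild type, Sox4 against wild type and K/L against Sox4, in place of 6490, 6135 and 3702, and no oxidase call changed. The other lists were recomputed under 2 scalings and without wild type array 3 alone, as chosen after seeing the data. Without that array, of 79 genes of these lists, 1 lost and 2 gained a call in K/L against wild type, 6 lost and 3 gained one in Sox4 against wild type (Tiam1 and Cebpd among the lost), and 0 lost and 10 gained one in K/L against Sox4. Without that array, higher calls in Sox4 against wild type became 1 in place of 2 for other parts of the enzyme and 2 in place of 5 for chromosome 15 neighbours. Lower calls in that comparison became 6 in place of 3 for superoxide and peroxide handling. In K/L against Sox4, higher calls became 4 in place of 2 for upstream genes and 3 in place of 1 for regulators, whose lower calls became 6 in place of 4. Lower neighbour calls in K/L against wild type became 3 in place of 1. With median centring, superoxide and peroxide handling in K/L against Sox4 had 5 higher and 1 lower in place of 2 and 2. NADPH supply had 1 higher in place of 0 and regulators 2 higher in place of 1 in that comparison. Lower calls in K/L against wild type became 0 in place of 1 for neighbours and for monocyte markers with that centring. Signal limits Itgam and 4 oxidase relatives, which lay under the filter.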
